A study of Mus with 6 samples.

Results

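Bile duct and ductular reaction genes were compared between livers of mice lacking Fabp4 and livers of their wild type littermates. The 8 genes Krt7, Krt19, Krt8, Krt18, Epcam, Sox9, Spp1 and Cftr were taken by symbol from a table of 48882 genes, and each of the 8 had a value in all 6 libraries. RNA was sequenced in 3 libraries from livers of Fabp4 knockout mice (Fabp4-/-, the FABP4 fatty acid-binding protein gene deleted) and 3 libraries from livers of wild type mice. Both groups had taken an ethanol liquid diet of the Lieber-DeCarli type for 8 weeks and then a single ethanol binge, a model of alcoholic steatohepatitis, in which fatty liver is joined by inflammation. Livers without ethanol were not analysed here, so each value below describes the ethanol-fed liver. The labels give neither strain, sex nor age, and do not say in which cells the deletion acts. They do not state that each replicate is a separate animal, so every p-value here speaks of the spread among these 6 libraries.

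Cholangiocytes are the epithelial cells that line the bile ducts. In many chronic liver injuries, alcoholic hepatitis among them, small duct-like cells multiply at the edge of the portal tracts, a change called the ductular reaction. These cells carry the simple epithelial keratins 7 and 19, the adhesion protein EpCAM and the transcription factor SOX9, and they secrete osteopontin, the product of Spp1. Keratins 8 and 18 are made by both hepatocytes and cholangiocytes. Keratins polymerize only as pairs of a type II chain (keratins 7 and 8) with a type I chain (keratins 18 and 19).

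Expression was deposited as the logarithm of TPM, a length-corrected share of the library, with the values matched in distribution across libraries. Sequencing depth cannot be read from such values, and the number of libraries sets the precision. Fabp4 (mm10 chromosome 3, 10204342 to 10208602) had no value, taken as 0, in any of the 3 knockout libraries, and was at 8.155 to 19.96 TPM in the wild type libraries. Hepatocyte markers were high in every library, the 12 together reaching 43822 to 46591 TPM in knockout libraries and 37689 to 52253 TPM in wild type libraries. Wild type replicate 2 stood apart on the first principal component (score 38.1, the others between -22.3 and 2.5), and the second component set off knockout replicate 1 (30.8, the others between -21.8 and 5.92). Of 14155 genes with a mean of at least 0.5 TPM, 1 passed a Benjamini-Hochberg adjusted p of 0.05 in limma, namely Fabp4 itself.

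None of the bile duct genes that could be tested passed the test between genotypes. Of the 8 genes, 7 were abundant enough to test and 0 passed the adjusted threshold, where the share of all genes called was 0.00706% (limma, Benjamini-Hochberg). At an unadjusted p under 0.05, 0 of the 7 passed, against 8.03% of all genes (5.12% higher and 2.91% lower in the knockout). Leaving out knockout replicate 3 brought Krt19 past the unadjusted threshold (limma adjusted p 0.9889). Leaving out wild type replicate 2, alone or with knockout replicate 1, brought Krt8 past it (limma adjusted p 0.8755 and 0.6865). Without knockout replicate 1, knockout replicate 2, wild type replicate 1 or wild type replicate 3 alone, 0 of the 7 passed it. The shares of all genes past it in these settings were not taken. All 7 had higher mean values in the knockout, as did 57.4% of all genes, and the median difference was 0.18 on the log2(TPM + 1) scale, against 0.04 for all genes. All 7 means stayed higher after median scaling and after quantile normalization, where 50.9% and 50.5% of all genes had higher means. The 7 directions are not independent, since Epcam and Sox9 followed Spp1 across the libraries (Pearson r 0.971 and 0.953). In 0 of the 7 did every knockout library lie above every wild type library, where 8.94% of all genes tested did, and 0 lay wholly below, where 4.38% did. Cftr, too low to test, was the 1 member without overlap. The 7 adjusted p-values from limma lay between 0.690 and 0.947. In bulk liver, fewer cells of a type and less RNA per cell cannot be told apart.

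**Figure D1:**
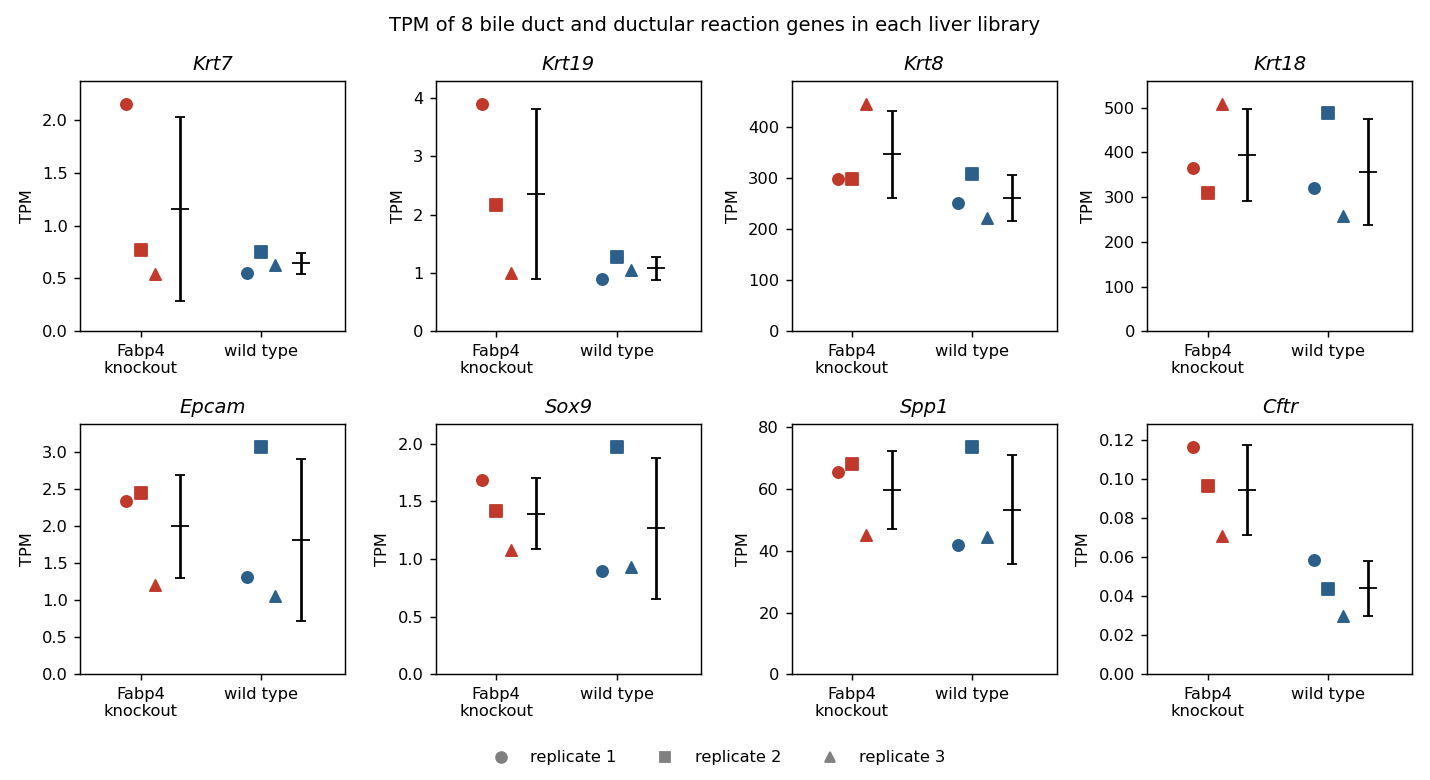
TPM of each gene in each library, with knockout libraries in red and wild type libraries in blue; symbols mark the replicate number and the bar beside each group is the mean with the SD of 3 libraries. The groups overlap for all genes but Cftr, whose knockout values of 0.0707 to 0.116 TPM lie above the wild type values of 0.0300 to 0.0583 TPM.

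The members spanned a wide range of abundance, and their order was shared at the top and the bottom. In all 6 libraries Krt18 came first, Krt8 next, then Spp1, and Cftr last, on the length-corrected TPM scale. The ranges of Krt18 and Krt8 overlapped across libraries, although Krt18 exceeded Krt8 within each library, by a factor of 1.04 to 1.59. Spp1 lay below Krt8 by a factor of 4.19 to 9.85. Epcam, Krt19, Sox9 and Krt7, which lay between 0.546 and 3.90 TPM, exchanged places between libraries and did not differ from their neighbours beyond that spread. Epcam was the highest of these 4 in 5 of 6 libraries, the exception being knockout replicate 1, in which Krt19 was higher.

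Krt19 (mm10 chromosome 11, 100140810 to 100145926, minus strand) encodes keratin 19, the type I keratin used to recognise bile ducts in sections. Knockout replicates 1, 2 and 3 held 3.90, 2.17 and 1.001 TPM, against 0.899, 1.28 and 1.05 TPM in wild type replicates 1, 2 and 3. Knockout replicates 1 and 2 were the 2 highest libraries, while knockout replicate 3 lay within the wild type range. The mean was 2.36 ± 1.46 TPM in the knockout and 1.08 ± 0.192 TPM in wild type (SD, n = 3 each), a ratio of means of 2.19. The log2(TPM + 1) difference was 0.60 (SE 0.31, 95% interval -0.11 to 1.31; limma adjusted p 0.690, unadjusted p 0.0854). On the log2 TPM scale, without the pseudocount that compresses low genes, it was 0.94 (SE 0.47; limma adjusted p 0.687). The difference was 0.28 without knockout replicate 1 and 0.93 without knockout replicate 3.

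Krt7 (chromosome 15, 101412403 to 101427806, plus strand), the type II keratin of bile duct cells, was lower than Krt19 in every library. It was measured at 2.16, 0.773 and 0.546 TPM in knockout replicates 1, 2 and 3, against 0.556, 0.752 and 0.626 TPM in wild type replicates 1, 2 and 3. Knockout replicate 1 alone stood out, and knockout replicate 3 was the lowest of the 6 libraries. The spread within the knockout was 3.95-fold between the highest and lowest library, against 1.35-fold within wild type. The difference was 0.32 on the log2(TPM + 1) scale (SE 0.27, 95% interval -0.31 to 0.95; limma adjusted p 0.803). Without knockout replicate 1 it was 0.01. Without knockout replicate 3, the library in which both genes were at the wild type level, both Krt7 and Krt19 had every knockout value above every wild type value, as did 12.6% of all genes tested in that setting.

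Krt8 (chromosome 15, 101996711 to 102004342, minus strand), the type II keratin of hepatocytes as well as ducts, was measured at 297, 297 and 445 TPM in knockout replicates 1, 2 and 3. Wild type replicates 1, 2 and 3 held 251, 308 and 221 TPM. Knockout replicate 3 was the highest library, and the groups overlapped only through wild type replicate 2, which exceeded knockout replicates 1 and 2. The mean was 346 ± 85.3 TPM in the knockout and 260 ± 44.2 TPM in wild type (SD, n = 3 each). The difference of 0.40 on the log2(TPM + 1) scale (SE 0.20, 95% interval -0.07 to 0.86) had a limma adjusted p of 0.690 and an unadjusted p of 0.0862. Leaving out knockout replicate 3 gave 0.20, and leaving out wild type replicate 2 gave 0.52.

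Krt18 (chromosome 15, 102028216 to 102032026, plus strand) encodes keratin 18, the type I partner of keratin 8, and its gene lies next to Krt8 on the chromosome. Its values were 364, 309 and 509 TPM in knockout replicates 1, 2 and 3, against 320, 489 and 259 TPM in wild type replicates 1, 2 and 3. Knockout replicate 3 and wild type replicate 2 were both high, so that the groups overlapped over almost their whole range. The log2(TPM + 1) difference was 0.17 (SE 0.27, 95% interval -0.46 to 0.79; limma adjusted p 0.909). Leaving out knockout replicate 3 gave -0.034 and leaving out wild type replicate 3 gave -0.037, so its direction was not stable. The annotated pseudogene copies of both genes were low, with Krt8-ps at no more than 0.802 TPM and 3 Krt18 pseudogenes without a value in any library. Reads shared with unlisted copies cannot be assessed from these values.

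Because the partners are needed in equal amounts, their ratio was taken within each library. A factor common to all genes of a library cancels in such a ratio. The matching of the values in distribution need not cancel, above all for genes far apart in abundance such as Krt19 and Krt8. The Krt8 to Krt18 ratio was 0.815, 0.962 and 0.874 in knockout replicates 1, 2 and 3, against 0.786, 0.630 and 0.855 in wild type replicates 1, 2 and 3. The lowest ratio belonged to wild type replicate 2, and the ratio of knockout replicate 1 lay inside the wild type range. The mean log2 ratio was -0.18 in the knockout and -0.41 in wild type, a difference of 0.23 with an exact two-sided permutation p of 0.2 over the 20 splits, where 0.1 is the smallest possible. The ratio of Krt19 to Krt8 sets a duct-restricted keratin against one that hepatocytes share. Krt19 was present at 13.1, 7.32 and 2.25 per 1000 of Krt8 in knockout replicates 1, 2 and 3, and at 3.58, 4.15 and 4.76 per 1000 in wild type replicates 1, 2 and 3. Knockout libraries held both the highest and the lowest values. The log2 difference was 0.54 (exact two-sided permutation p = 0.6) and -0.027 without knockout replicate 1.

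**Figure D2:**
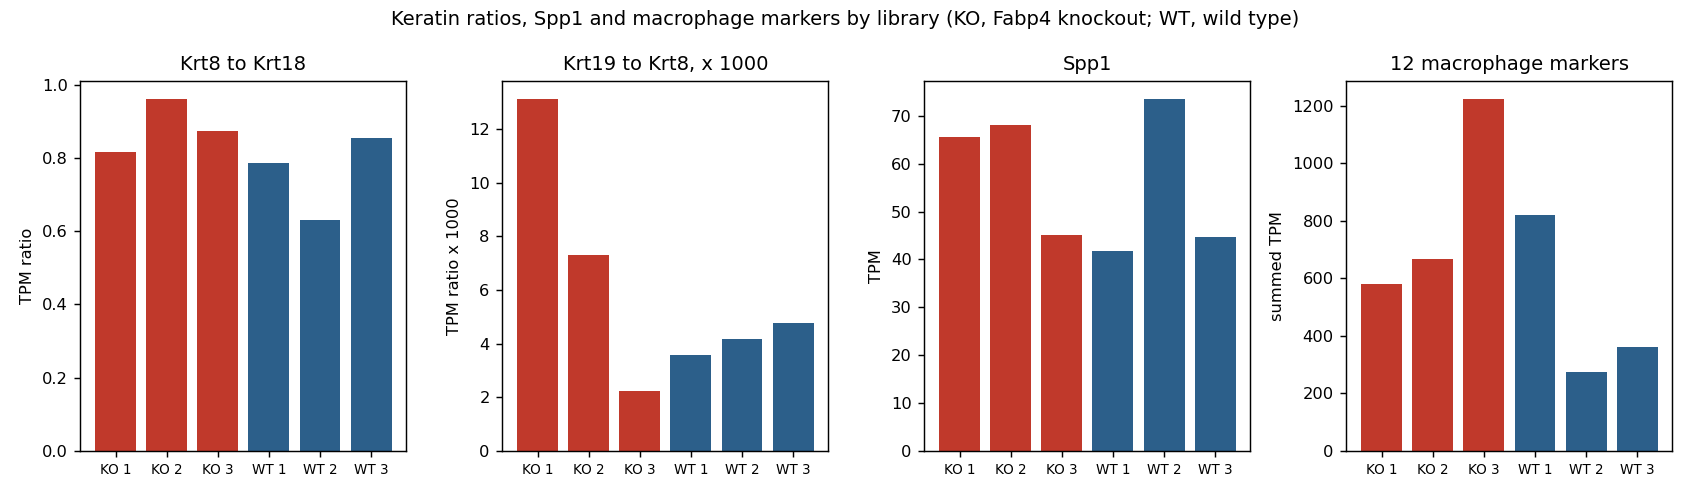
Bars give, for each library (KO, Fabp4 knockout in red; WT, wild type in blue), the Krt8 to Krt18 ratio, the Krt19 to Krt8 ratio times 1000, Spp1 in TPM and the summed TPM of 12 macrophage markers. Krt19 relative to Krt8 ran from 2.25 to 13.1 within the knockout, and Spp1 was highest in wild type replicate 2, the library with the fewest macrophage transcripts.

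Epcam (chromosome 17, 87635979 to 87651127, plus strand) encodes the epithelial cell adhesion molecule, present on cholangiocytes and hepatic progenitor cells and absent from mature hepatocytes. Knockout replicates 1, 2 and 3 held 2.34, 2.44 and 1.20 TPM, against 1.32, 3.06 and 1.06 TPM in wild type replicates 1, 2 and 3. The highest and the lowest library were both wild type. The difference was 0.13 on the log2(TPM + 1) scale (SE 0.30, 95% interval -0.56 to 0.82; limma adjusted p 0.947). It was 0.43 without wild type replicate 2 and -0.063 without wild type replicate 3.

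Sox9 (chromosome 11, 112782210 to 112787757, plus strand) encodes a transcription factor of cholangiocytes and of hepatocytes that take on duct features. It was measured at 1.69, 1.42 and 1.08 TPM in knockout replicates 1, 2 and 3, against 0.897, 1.97 and 0.932 TPM in wild type replicates 1, 2 and 3. Wild type replicate 2 was the highest library, and all 3 knockout libraries lay above the other 2 wild type libraries. The log2(TPM + 1) difference was 0.10 (SE 0.22, 95% interval -0.40 to 0.61; limma adjusted p 0.940). It was 0.31 without wild type replicate 2 and -0.0091 without wild type replicate 1.

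Spp1 (chromosome 5, 104435111 to 104441053, plus strand) encodes osteopontin, a secreted ligand of integrins and CD44 that ducts, macrophages and activated stellate cells can make. It was measured at 65.5, 68.1 and 45.1 TPM in knockout replicates 1, 2 and 3, against 41.8, 73.6 and 44.6 TPM in wild type replicates 1, 2 and 3. Wild type replicate 2 and knockout replicates 1 and 2 were high and the other 3 libraries were low, with knockout replicate 3 within 1 TPM of wild type replicate 3. The mean was 59.6 ± 12.6 TPM in the knockout and 53.3 ± 17.6 TPM in wild type (SD, n = 3 each), a log2(TPM + 1) difference of 0.18 (SE 0.25, 95% interval -0.40 to 0.76; limma adjusted p 0.891). Without wild type replicate 2 it was 0.43, and Krt8, Sox9 and Spp1 then had every knockout value above every wild type value, as did 14.0% of all genes tested in that setting. The same 3 genes did so without wild type replicate 2 and knockout replicate 1 together, where the share of all genes was 21.5%. The library left out was the one through which the groups of these 3 genes overlapped. Without knockout replicate 1, knockout replicate 2, wild type replicate 1 or wild type replicate 3, 0 of the 7 tested genes did so. The shares of all genes in those settings were 15.2% to 17.3%.

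Macrophage markers did not follow Spp1 across the libraries. The 12 markers of macrophages and Kupffer cells, the resident liver macrophages, summed to 578, 668 and 1224 TPM in knockout replicates 1, 2 and 3, against 818, 272 and 361 TPM in wild type replicates 1, 2 and 3. All 12 had higher means in the knockout, as did 57.4% of all genes tested. At an unadjusted p under 0.05, 4 of the 12 passed as higher, against 5.12% of all genes, and 0 passed an adjusted p of 0.05 (limma). Leaving out wild type replicate 1 brought 11 of the 12 past the unadjusted threshold. That library had the highest wild type sum of these same markers. The count was 4 without knockout replicate 1. It was 3 without knockout replicate 2, knockout replicate 3, wild type replicate 2 or wild type replicate 3. The shares of all genes in these settings were not taken. The sum of the 12 markers was lowest in wild type replicate 2, where Spp1 was highest, and highest in knockout replicate 3, where Spp1 was low. None of the 12 was at 0 in any library. All 6 genes of lipid-associated macrophages, a state in which macrophages themselves make osteopontin, had higher means in the knockout, as did 57.4% of all genes. They summed to 48.7 to 72.3 TPM in the knockout and 32.4 to 51.0 TPM in wild type. Cd9 made up most of these sums, at 37.19 to 43.16 TPM in the knockout and 26.98 to 34.35 TPM in wild type. Cd9 alone of the 6 passed an unadjusted p of 0.05, and 0 passed the adjusted threshold (limma). It did not pass without knockout replicate 1, knockout replicate 3, wild type replicate 2 or wild type replicate 3. Trem2 and Gpnmb, receptors of that state, reached at most 2.04 and 2.58 TPM. The 11 stellate cell and fibroblast markers summed to 336 to 407 TPM in the knockout and 288 to 349 TPM in wild type. Dcn made up most of these sums, at 227.9 to 308.5 TPM in the knockout and 200.8 to 250.2 TPM in wild type. The part of these cells in the Spp1 values was not tested.

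The 9 genes for osteopontin receptors were all abundant enough to test, and 0 passed the adjusted threshold in limma. Means were higher in the knockout for 7 and lower for 2 (6 and 3 under either further scaling of the libraries), with a median difference of 0.21. Itga5, the integrin alpha 5 chain, averaged 10.4 ± 0.480 TPM in the knockout and 7.49 ± 1.53 TPM in wild type (SD, n = 3 each; log2 0.44, SE 0.15), with every knockout library above every wild type library. Itga8, the alpha 8 chain, had a difference of 0.51 (SE 0.21). These 2 chains passed an unadjusted p of 0.05 as higher, where 5.12% of all genes did. Neither passed without knockout replicate 2, knockout replicate 3, wild type replicate 1 or wild type replicate 2. Under either further scaling Itga5 passed as higher and Itgb3 as lower, and Itga8 no longer passed. Itgb3, the beta 3 chain of the classical osteopontin receptor, averaged 1.60 ± 0.153 TPM in the knockout and 2.16 ± 0.166 TPM in wild type (SD, n = 3 each; log2 -0.29, SE 0.14), with no overlap. Its partner Itgav had a difference of 0.21 (SE 0.12), also with no overlap. The limma adjusted p-values of the 9 were at least 0.564.

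Cftr (chromosome 6, 18170262 to 18322774, plus strand), the chloride channel of the duct cells' apical membrane that drives bicarbonate secretion, was the lowest of the 8 genes. Its values were 0.116, 0.0965 and 0.0707 TPM in knockout replicates 1, 2 and 3, against 0.0583, 0.0440 and 0.0300 TPM in wild type replicates 1, 2 and 3. Every knockout library lay above every wild type library, as did 7.03% of 3014 genes with a value in all 6 libraries and a mean under 0.5 TPM. The mean was 0.0945 ± 0.0229 TPM in the knockout and 0.0441 ± 0.0141 TPM in wild type (SD, n = 3 each), a ratio of 2.14. The exact two-sided permutation p was 0.1, the smallest that 3 against 3 libraries allow. In a fit of log2 TPM for all genes with a value in every library, added after the data were seen, the difference was 1.12 (SE 0.60; limma adjusted p 0.702). With the depth unknown, the number of reads behind values this low is unknown. An antisense gene that overlaps Cftr had no value in any library.

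**Figure D3:**
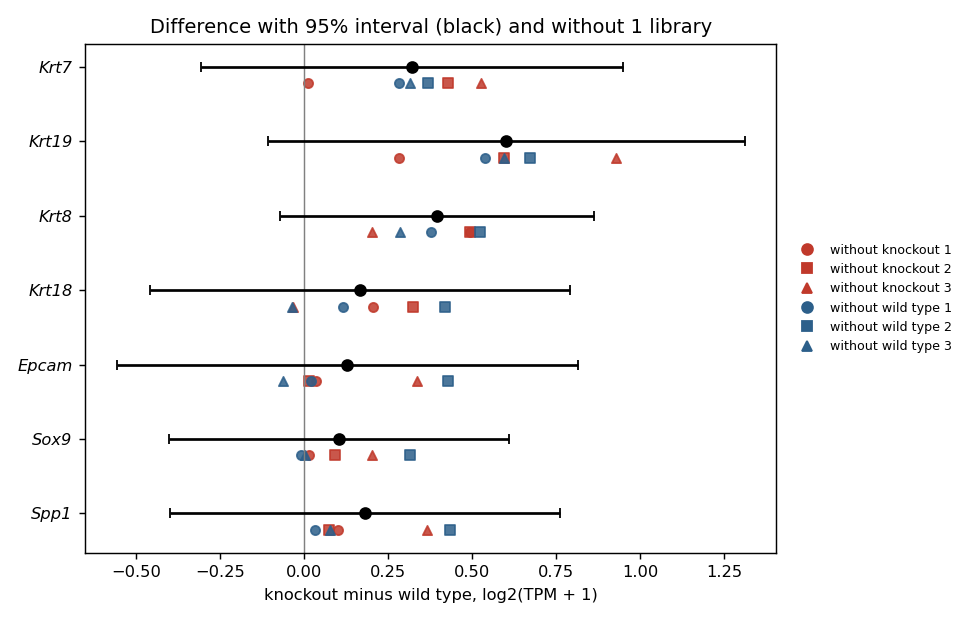
Differences between knockout and wild type on the log2(TPM + 1) scale for the 7 genes tested, with 95% intervals from limma in black and, below each, the differences with 1 library left out (red, a knockout library; blue, a wild type library). All 7 intervals include 0, and Krt18, Epcam and Sox9 change direction when certain single libraries are left out.

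The members separated into sets that went together across libraries, and the sets crossed the genotypes. Of the 28 pairs of members, Sox9 with Spp1 had the steadiest ratio, which stayed between 0.0208 and 0.0268 while each gene varied by up to 2.20-fold. Krt8 with Krt18 came next (SD of the log2 ratio 0.21), then Epcam with Sox9 (0.25), Krt7 with Krt19 (0.29) and Epcam with Spp1 (0.30). Krt19 with Krt18 had the least steady ratio (0.93), followed by Krt19 with Krt8 (0.88). Epcam, Sox9 and Spp1 were highest in wild type replicate 2 and knockout replicates 1 and 2. Krt7 and Krt19 were highest in knockout replicate 1, and Krt8 and Krt18 in knockout replicate 3, where Epcam, Sox9, Spp1, Krt7 and Krt19 were all below their own means. These groupings are descriptions of 6 libraries.

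**Figure D4:**
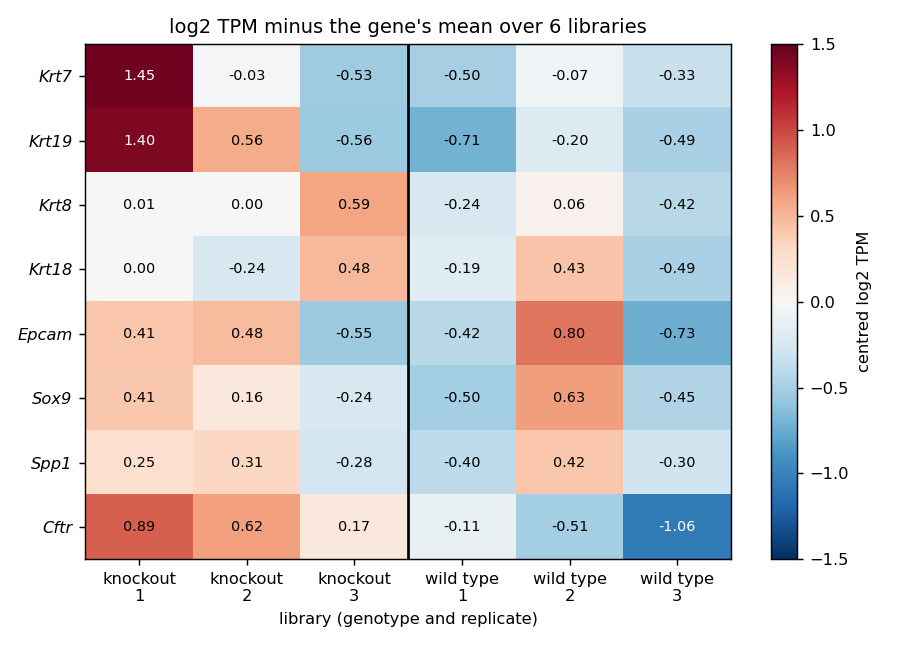
Each cell gives a gene's log2 TPM in a library minus that gene's mean over the 6 libraries, with knockout libraries left of the line and wild type libraries right of it. Krt7 and Krt19 reach 1.45 and 1.40 in knockout replicate 1, Krt8 and Krt18 reach 0.59 and 0.48 in knockout replicate 3, and Epcam, Sox9 and Spp1 reach 0.80, 0.63 and 0.42 in wild type replicate 2.

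The genes whose log2(TPM + 1) values followed a member most closely over the 6 libraries were taken from 10717 protein-coding genes. These had a mean of at least 1 TPM, so Krt7, at a mean of 0.901 TPM, and Cftr were not among them. For Krt19 they were B4galt3 (Pearson r 0.994), a galactosyltransferase, and the gamma protocadherins Pcdhgb6 (0.992) and Pcdhga10 (0.984), whose transcripts share constant exons and cannot be told apart with certainty. For Krt8 they were Ezh2 (0.991), a histone methyltransferase, Tpp2 (0.989), a peptidase, and Dck (0.984), deoxycytidine kinase. For Spp1 they were Tgds (0.986), Hook2 (0.980) and the member Epcam (0.971), with Sox9 in place 6 (0.953). Such high values are the top of a search over many genes with 6 points each. Krt18 was in place 289 for Krt8 (r 0.847).

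A wider set of 23 cholangiocyte genes was read beside the members. Of these, 16 were tested, 11 with higher and 5 with lower means in the knockout (median log2 difference 0.20), and 0 passed the adjusted threshold in limma. At an unadjusted p under 0.05, 4 passed, all higher, against 5.12% of all genes higher and 2.91% lower. The same shares of all genes stand beside the counts of the lists that follow. Aqp1, the water channel of ducts and also of endothelium, was measured at 81.6, 80.2 and 98.7 TPM in knockout replicates 1, 2 and 3, against 67.3, 63.5 and 63.4 TPM in wild type replicates 1, 2 and 3. Its groups did not overlap (log2 0.41, SE 0.13; limma adjusted p 0.537). Slc4a2, the chloride-bicarbonate exchanger that works beside CFTR, averaged 10.5 ± 1.69 TPM in the knockout and 7.44 ± 1.32 TPM in wild type (SD, n = 3 each; log2 0.45, SE 0.17). Slc5a1, a sodium-glucose transporter, had a difference of 0.63 (SE 0.26). Prom1, a progenitor surface marker, was at 1.83, 4.66 and 8.38 TPM in the knockout, against 2.48, 1.69 and 1.28 TPM in wild type. It was highest in knockout replicate 3, the library in which Krt7 was lowest.

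Of these 4, Aqp1 passed an unadjusted p of 0.05 in all 16 alternatives, and it was the only 1 of the 4 to do so under either further scaling of the libraries, and when knockout replicate 2, knockout replicate 3 or wild type replicate 2 was left out. Sctr, the secretin receptor that acts upstream of CFTR, was at 0.114 TPM or below in every library. Of the 8 endothelial markers, all had higher means in the knockout (median 0.46, sums of 141 to 165 TPM in the knockout and 101 to 135 TPM in wild type). At an unadjusted p under 0.05, 5 passed as higher, against 5.12% of all genes. The count was 3 without knockout replicate 3 or wild type replicate 2, and 7 without wild type replicate 1. It was 5 without knockout replicate 1 or wild type replicate 3, and 6 without knockout replicate 2. The shares of all genes in these settings were not taken. The part of endothelial cells in the Aqp1 values was not tested.

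Notch signalling, which directs cells to the bile duct fate, was represented by 16 genes, of which 13 were tested. Of these, 11 had higher and 2 lower means in the knockout (9 and 4 after quantile normalization), with a median of 0.10 and 0 past the adjusted threshold in limma. The ligand gene Dll4 averaged 3.59 ± 0.802 TPM in the knockout and 2.37 ± 0.371 TPM in wild type (SD, n = 3 each; log2 0.44, SE 0.17), without overlap and with the only unadjusted p under 0.05 in the list. It no longer passed when knockout replicate 1, wild type replicate 2 or wild type replicate 3 was left out, or with no filter on low values. Dll1 (0.58, SE 0.27) and the feedback regulator Nrarp (0.30, SE 0.15) also had no overlap, and Mfng, a glycosyltransferase acting on Notch, had a difference of 0.29 (SE 0.21). Jag1, the ligand tied to bile duct formation in humans, had a difference of 0.09 (SE 0.15), and the target Hes1 one of 0.09 (SE 0.31). Another target, Hey2, was under the abundance filter, at 0.278, 0.250 and 0.344 TPM in knockout replicates 1, 2 and 3, against 0.0764, 0.0760 and 0.0768 TPM in wild type replicates 1, 2 and 3. Every knockout value of Hey2 lay above every wild type value, as did 7.03% of 3014 genes with a value in all 6 libraries and a mean under 0.5 TPM. In the fit of log2 TPM its difference was 1.92 (SE 0.46; limma unadjusted p 0.00279, adjusted p 0.538). The number of reads behind values this low is unknown, and Hey2 was picked after its values were seen. The related genes Hey1 and Heyl, which were tested, had differences of 0.10 (SE 0.21) and -0.03 (SE 0.19), both with overlap. The Notch2 receptor gene averaged 9.74 ± 2.74 TPM in the knockout and 7.98 ± 1.09 TPM in wild type (SD, n = 3 each).

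YAP and TAZ, transcriptional coactivators that can turn hepatocytes towards duct features, were covered by 12 genes, 10 of them tested. Yap1 was close to equal (log2 -0.01, SE 0.12), and Wwtr1, which encodes TAZ, had a difference of -0.25 (SE 0.15). Their target Cyr61 averaged 9.28 ± 2.21 TPM in the knockout and 6.67 ± 1.33 TPM in wild type (SD, n = 3 each; log2 0.42, SE 0.20), without overlap. Another target, Ctgf, had a difference of -0.35 (SE 0.31), opposite in sign. Ajuba (0.52, SE 0.27), Amotl1 (0.26, SE 0.14) and Axl (0.68, SE 0.38) were the others with the smallest p-values. In the list 7 means were higher and 3 lower, the median was 0.22, and 0 genes passed either an adjusted or an unadjusted p of 0.05 in limma.

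Signals that make ductular cells grow were covered by 11 genes, 6 of them tested, 4 with higher and 2 with lower means in the knockout (median 0.18) and 0 past the adjusted threshold in limma. Tgfb1 averaged 8.29 ± 1.29 TPM in the knockout and 5.40 ± 1.98 TPM in wild type (SD, n = 3 each; log2 0.57, SE 0.23), and was the 1 gene with an unadjusted p under 0.05, which it no longer passed when knockout replicate 2, knockout replicate 3, wild type replicate 2 or wild type replicate 3 was left out, with no filter on low values, or with the replicate block. Tnfrsf12a, the receptor of the ductular mitogen TWEAK, had a difference of 0.42 (SE 0.24), and Fgfr2 one of 0.21 (SE 0.19). Met, the receptor of hepatocyte growth factor, averaged 29.1 ± 4.70 TPM in the knockout and 36.6 ± 3.33 TPM in wild type (SD, n = 3 each; log2 -0.33, SE 0.15), without overlap. Fgf7, Lif, Osm and Itgb6 were each at 0.125 TPM or below in every library.

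Genes for proteins that anchor or aggregate with keratins numbered 10, all tested, with 6 higher and 4 lower means in the knockout and a median of 0.06. Hspb1, a small heat shock protein that binds intermediate filaments, was measured at 218, 146 and 120 TPM in knockout replicates 1, 2 and 3. Wild type replicates 1, 2 and 3 held 99.2, 52.6 and 96.8 TPM. Its groups did not overlap and its difference was 0.96 (SE 0.30), with a limma unadjusted p of 0.0131 and an adjusted p of 0.537. It passed an unadjusted p of 0.05 in all 16 alternatives and the adjusted one in 0. Sqstm1, the p62 protein of the Mallory-Denk bodies in which keratins 8 and 18 aggregate, was near equal, at 484 ± 72.2 TPM in the knockout and 490 ± 54.1 TPM in wild type (SD, n = 3 each). Ppl (0.58, SE 0.30), Plec (-0.37, SE 0.22) and Ubd (0.55, SE 0.38) came next by p-value.

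**Figure D5:**
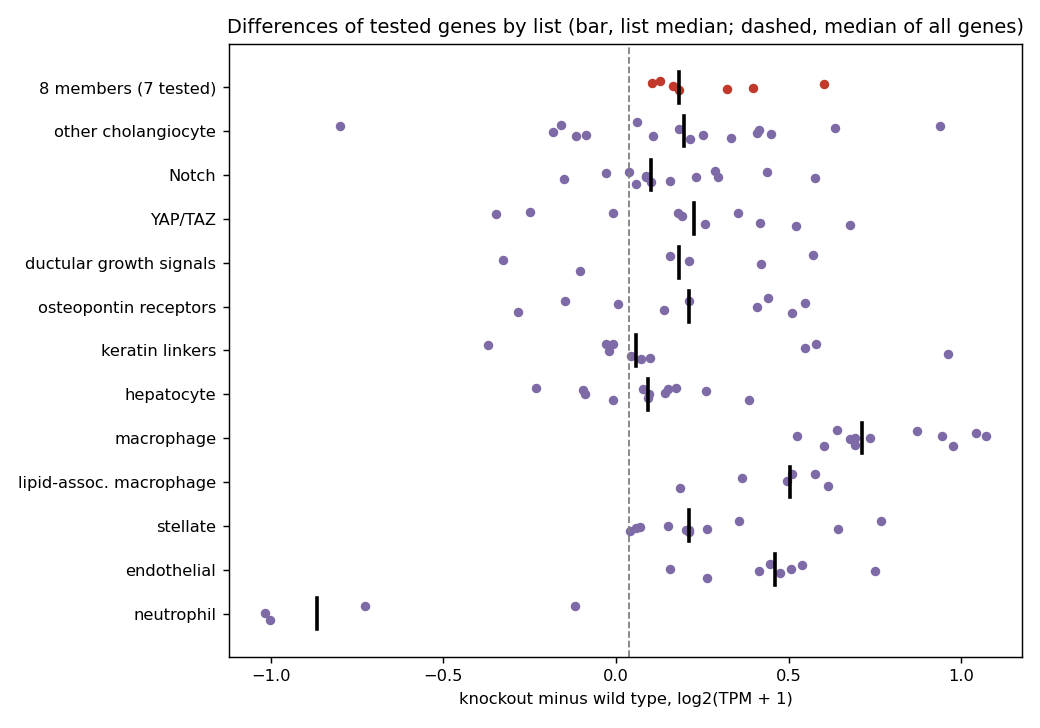
Each point is the knockout minus wild type difference of a tested gene on the log2(TPM + 1) scale, by list; the black bar is the list's median and the dashed line the median of all genes tested, 0.04. The 7 tested bile duct genes lie between 0.10 and 0.60 with a median of 0.18, below the medians of the macrophage (0.71) and endothelial (0.46) lists.

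Markers of neighbouring epithelia were low. Of 6 mucin and trefoil genes of large ducts and gallbladder, 0 reached the abundance filter, with sums of 0.127 to 0.787 TPM in the knockout and 0.173 to 0.726 TPM in wild type. Muc5ac had no value in any library, and Muc5b had one in knockout replicate 3 alone, at 0.0126 TPM. The 12 hepatocyte markers had 8 higher and 4 lower means (median 0.09). The 4 neutrophil markers tested all had lower means in the knockout (median -0.87). At an unadjusted p under 0.05, 3 of them passed as lower, against 2.91% of all genes, and 0 passed an adjusted p of 0.05 in limma. None of the 4 passed the unadjusted threshold without knockout replicate 3, wild type replicate 1 or wild type replicate 2. All 8 neutrophil markers of the list summed to 15.8 to 20.6 TPM in the knockout and 20.9 to 50.1 TPM in wild type. This sum was highest in wild type replicate 2, as were Epcam, Sox9 and Spp1, and Ly6g and Mpo were at 0 in all other libraries. The part of neutrophils in those values was not tested.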

How the data were processed

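The deposited table holds, for 48882 genes, 6 columns named TPM per the file headers, whose deposited values are log2 TPM, since many are negative and 2 raised to them adds up to between 983800 and 1018118 in a library. Sorted values nearly coincide between libraries, as quantile normalization leaves. The genome build was mm10, and FastQC and Trimmomatic were used, per the submitters' processing notes; aligner, quantification, annotation and strandedness: not given in the sources used here. The deposited gene length in bases is another column, per the file headers, and was printed nowhere.

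A missing value was taken as 0 TPM. The 14155 genes with a mean of at least 0.5 TPM were tested on log2(TPM + 1), which understates changes of low genes, with limma 3.58.1 in R 4.3.3 (group alone in the model, eBayes trend, 4 residual and 3.65 prior degrees of freedom, two-sided) and Benjamini-Hochberg adjustment over all genes, with a threshold of 0.05, on differences of the knockout from wild type. Tests were checked on simulated data, with changes larger than those of the tested members and in genes more abundant than Krt7, Krt19, Epcam and Sox9. That check does not cover small changes of such low genes. The 8 members and 15 gene lists (161 other genes, all matched, 1 under an older symbol) were chosen with earlier results of these data known. Named genes were the 8 members, Fabp4, the 4 genes with the smallest p of each pathway list, marker genes and the 3 genes most like Krt19, Krt8 and Spp1. Sctr, Jag1, Hes1, Hey1, Hey2, Heyl, Notch2, Yap1, Wwtr1, Ctgf and Sqstm1, and markers at or near 0, were chosen after their values were seen. Alternatives were other pseudocounts, filters and scalings, no trend, a replicate block and leaving out libraries. The value of 1 gene of the wider cholangiocyte list is not reported here.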

Additional observations from a re-analysis of the deposited data

How the results depend on the processing

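The 7 tested bile duct genes stayed under the threshold in every alternative, of 16, that could test them (limma adjusted p at least 0.588), and Krt7, Krt19, Krt8 and Spp1 kept their direction in them. Direction turned for Krt18 without knockout replicate 3 or wild type replicate 3, for Epcam without wild type replicate 3 and for Sox9 without wild type replicate 1. With 1 library left out, or wild type replicate 2 and knockout replicate 1 together, differences ranged from -0.037 to 0.46 for Krt18, -0.063 to 0.43 for Epcam, -0.0091 to 0.31 for Sox9, 0.01 to 0.53 for Krt7, 0.28 to 0.93 for Krt19, 0.20 to 0.62 for Krt8 and 0.03 to 0.43 for Spp1. The log2 Krt19 to Krt8 difference ranged from -0.027 without knockout replicate 1 to 1.25 without knockout replicate 3, and was -0.02 without knockout replicate 1 and wild type replicate 2. Cftr stayed between 0.87 and 1.35 on the log2 TPM scale in 8 alternatives. The number of genes past the threshold was 1, and was 0 with a pseudocount of 5, without a filter, with the replicate number as a block and on log2 TPM. It was 3 without wild type replicate 2 and knockout replicate 1, and 0 to 6 with 1 library left out. Fabp4 kept its direction; its adjusted p was 0.209 with a pseudocount of 5 (difference -1.90), 0.145 without a filter (-3.85), 0.0820 with the replicate block (-3.85) and 0.0922 to 0.176 without knockout replicate 1, knockout replicate 2 or wild type replicate 1 (-4.18 to -3.58 over the 6 fits that leave out 1 library). The cause was not tested. At an unadjusted p under 0.05, 725 genes were higher and 412 lower in the knockout, against 580 and 521 after median scaling and 570 and 537 after quantile normalization. Same-numbered libraries did not deviate together (r -0.27 to -0.05), so the numbers were not taken as pairs. TPM keeps no depth, which limits what can be said of Cftr and Hey2.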

Other observations

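The table lists 46 keratin genes besides the 4 members, and 33 of them had no value in any library. Only Krt23 and Krt10 were abundant enough to test. Krt23, a type I keratin that is also induced in injured liver, was more abundant than Krt7 or Krt19, at 9.01, 13.4 and 9.11 TPM in knockout replicates 1, 2 and 3, against 21.8, 4.65 and 14.8 TPM in wild type replicates 1, 2 and 3. It was lowest in wild type replicate 2, where Epcam, Sox9 and Spp1 were highest, and its groups overlapped only through that library. Without wild type replicate 2, alone or with knockout replicate 1, every knockout value of Krt23 lay below every wild type value. In both settings Krt23 passed the unadjusted threshold as lower in limma. Of its list of 16 tested genes, 1 and 4 passed as higher there, and 0 passed the adjusted threshold. The shares of all genes passing as lower there were not taken. Krt10, a keratin of skin, was at 0.687 to 1.83 TPM in the knockout and 0.940 to 1.83 TPM in wild type.

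Slc10a2, the bile acid transporter by which cholangiocytes take bile acids back up, was at 1.71, 0.544 and 2.23 TPM in the knockout and at 1.83, 5.69 and 2.76 TPM in wild type (log2 -0.80, SE 0.37; limma adjusted p 0.666). Among 9 exocrine pancreas markers, Cela1 alone passed the abundance filter. Prss2, Cpa1, Ctrb1, Pnlip and Cel had no value in any knockout library and in wild type replicate 1, and had values of at most 1.67 TPM in wild type replicates 2 and 3. Ctrb1, Pnlip and Cel were highest in wild type replicate 2, as were Epcam, Sox9 and Spp1, while Prss2 and Cpa1 were highest in wild type replicate 3. The part of pancreatic tissue in the values of the members was not tested. Of 8 intestinal epithelium markers, Cdx1, Cdx2 and Sis had no value in any library, and Lgr5 and Fabp2, which hepatocytes also express, were the 2 tested.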
